A study of Mus musculus with 4 samples.

Results

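Ly6C-high monocytes were picked out of 4 single-cell libraries of mouse liver leukocytes by their transcripts. A cell was taken when UMIs (unique molecular identifiers, each a counted mRNA molecule) of Ly6c2, F13a1, Fn1 and Vcan made up 0.1% or more of its total and exceeded the sum of Ace, Ear2, Treml4, Pglyrp1, Eno3 and Spn, genes of patrolling monocytes. UMIs of H2-Aa, H2-Ab1, H2-Eb1 and Cd74 had to stay under 1%, and those of C1qa, C1qb and C1qc under 0.1%. The rule found 3051 cells among 9609 that carried 200 genes or more and no more than 10% mitochondrial UMIs. It reads transcripts and not surface Ly6C, and the levels of its own genes are no finding.

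Ly6C-high monocytes are the classical blood monocytes of the mouse. They leave the bone marrow with the help of the chemokine receptor CCR2, enter inflamed liver, and there become macrophages or convert to Ly6C-low monocytes that patrol vessels. They carry antimicrobial products, release interleukin 1 beta and chemokines after an alarm signal, and are known to take part in both injury and repair of fatty liver.

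The mice were male wild-type C57BL/6, matched for weight and 8 weeks old when obtained. For 6 weeks they ate a normal control diet (NCD) or a diet lacking methionine and choline (MCD), a common model of steatohepatitis. Each diet has 2 libraries of the 10x Genomics 3' v3 kit. The sources do not say whether a library is 1 mouse or a pool, so p-values measure the spread between these libraries, which may be technical. Live CD45+ Ly6G- cells with intermediate CD11b had been sorted, and F4/80 is given as low in the series text but as high in the sample labels. No batch is named, so diet and batch cannot be told apart.

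The libraries gave 355 and 455 members on NCD and 979 and 1262 on MCD, and no cell barcode was shared between members of different libraries. The median member had 2054 and 2221 UMIs on NCD against 13730 and 13051.5 on MCD. Mitochondrial genes took 7.70% and 7.62% of member UMIs on NCD and 3.52% and 3.21% on MCD. Ribosomal protein genes took 27.9% and 24.97% on NCD and 17.6% and 17.3% on MCD. Depth and these signs of RNA quality moved with diet in each library, and their part in the differences below was not tested. A limit of 5% mitochondrial UMIs left only 17 and 25 NCD members, so few calls could be made under it.

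The 4 marker genes took a median of 0.225% and 0.233% of a member's UMIs on NCD and 0.274% and 0.330% on MCD. Just inside the threshold, between 0.1 and 0.2%, lay 140, 178, 291 and 259 members of NCD replicates 1 and 2 and MCD replicates 1 and 2. Just outside, between 0.05 and 0.1%, lay 80, 69, 146 and 104 cells that met the rest of the rule. Only 1 or 2 marker UMIs carried the choice of 10.1% and 9.89% of NCD members and of 2.66% and 2.06% of MCD members.

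Genes outside the rule fitted the name in all 4 libraries. They are described without a test, because the cells were chosen by their transcripts. Ratios below compare CPM (UMIs of a gene scaled to a fixed library total) in members with that in the other retained cells of the same library, after adding 1 CPM to both. Lyz2, the lysozyme of myeloid cells, stood at 3.26 to 3.61 times the other cells. Chil3, a chitinase-like protein typical of classical monocytes, stood at 4.34 to 6.60 times, and Mgst1, a microsomal glutathione transferase, at 4.55 to 5.59 times. The highest ratios belonged to Mmp8, a neutrophil collagenase, at 8.92 to 14.5 times, and Cd177, a neutrophil surface protein, at 5.41 to 8.30 times. As a set, however, the 11 listed neutrophil genes, Mmp8 among them, stood lower in members than in other cells in each library. They took 0.0322% and 0.0718% of member UMIs on NCD and 0.0360% and 0.0299% on MCD. In the other cells they took 0.352% and 0.313% on NCD and 0.130% and 0.0613% on MCD. Ly6g, the defining neutrophil marker, had no UMI in the members of any library, where a count of 0 allows up to 3. In the other retained cells it stood at 0.105 CPM in MCD replicate 1 and at 0 CPM elsewhere. The sort had also excluded Ly6G, so the missing UMIs cannot show whether members carried neutrophil RNA. Ccl2, the ligand of CCR2, stood at 2.90 to 3.50 times.

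**Figure D1:**
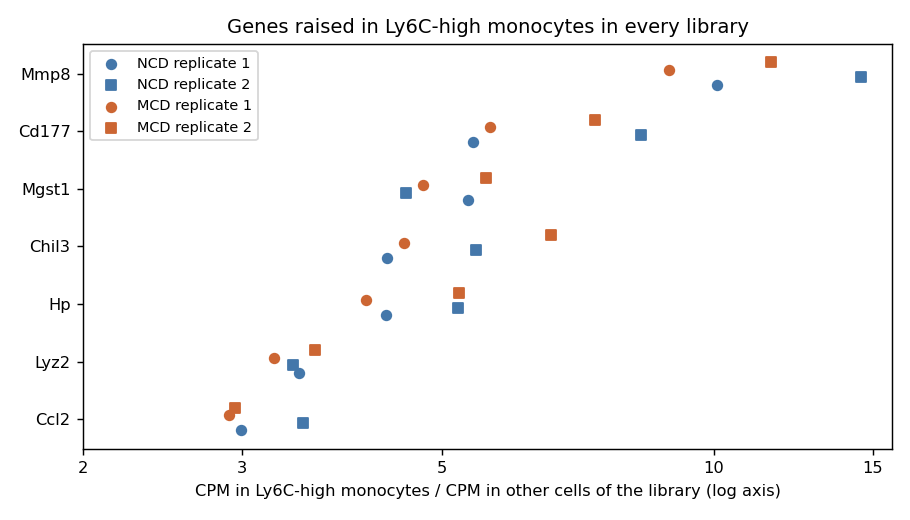
CPM in Ly6C-high monocytes divided by CPM in the other cells of the same library (log axis), 1 point per library, for 7 of the 10 genes outside the rule with the highest lowest-library ratio. The lowest point is Ccl2 at 2.90 and the highest Mmp8 at 14.5, and the libraries of the 2 diets mix within each gene plotted but Ccl2, where both MCD libraries lie below both NCD libraries.

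Some genes of other myeloid cells stood low and others did not. Cd209a, a lectin of monocyte-derived dendritic cells, was at 0.0978 to 0.199 times the other cells, and Itgax (CD11c) at 0.139 to 0.225 times. The 8 Kupffer cell genes together took 0.00136 to 0.00344% of member UMIs. The 8 genes of C1q macrophages, which include Apoe, took 0.143% and 0.184% on NCD and 0.380% and 0.456% on MCD. In the other cells they took 0.208% and 0.268% on NCD and 0.335% and 0.391% on MCD, so members lay below the other cells on NCD and above them on MCD. The 10 endothelial genes took 0.115% and 0.198% on NCD and 0.0405% and 0.0586% on MCD, with Ly6c1 in NCD replicate 1 the only one of them at 0. Endothelial RNA therefore moved with diet among the chosen cells, and its values are given below beside the genes it touches.

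Members made up a larger share of the retained cells on MCD in these libraries. Their share was 20.5% (exact 95% binomial interval 18.6 to 22.4) and 25.5% (23.5 to 27.6) in the NCD libraries. In the MCD libraries it was 33.2% (31.5 to 34.9) and 40.2% (38.5 to 42.0). Both MCD libraries lay above both NCD libraries. The means were 23.0% ± 3.55 and 36.7% ± 4.97 (SD, n = 2 each), a difference of 13.7 percentage points with a two-sided exact permutation p of 0.3333, the smallest that 2 against 2 libraries can give. These intervals cover counting error only, and a sort sets such shares too, so they describe sorted cells and not the liver.

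**Figure D2:**
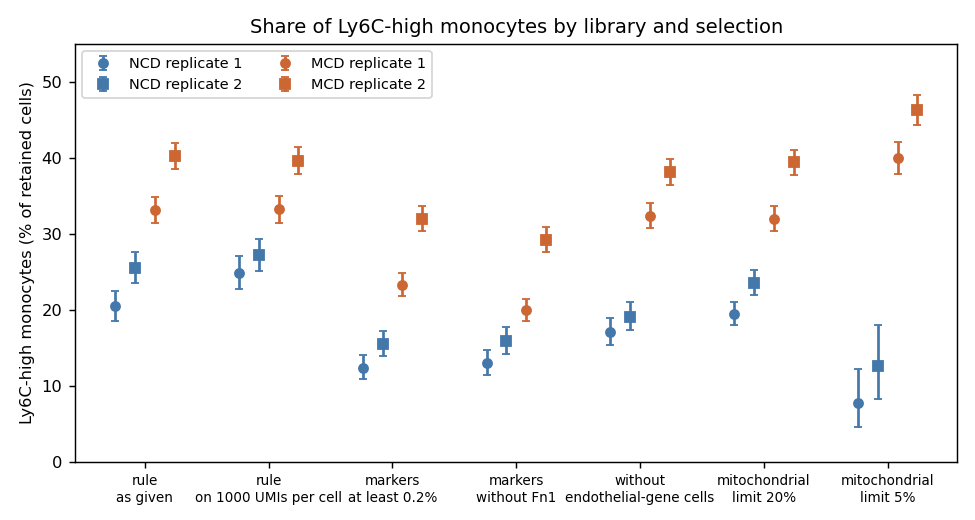
Ly6C-high monocytes as a percentage of retained cells in each library, under the rule as given (20.5, 25.5, 33.2 and 40.2%) and 6 changes to it; error bars are exact 95% binomial intervals. In each setting both MCD libraries lie above both NCD libraries.

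Gene expression of members was compared between diets on UMIs summed per library. Of 10822 genes tested, edgeR's quasi-likelihood test called 1995 higher on MCD (18.4%) and 1730 lower (16%) at a Benjamini-Hochberg adjusted p under 0.05, 34.4% in all. Genes at 50 CPM or more in either diet were called more often. In 4 groups of them by transcript length, 20.3 to 41.9% were higher and 18.7 to 33.0% lower. List counts below are best read beside these shares too. The median log2 change of all tested genes was 0.04. Scaling by library totals in place of TMM factors moved it to 0.27 and gave 2811 higher and 1188 lower. The libraries of the 2 diets did not overlap for 71.3% of tested genes, so separation alone was common. Levels below are TMM-scaled CPM, changes are log2 MCD over NCD ± SE, and the adjusted p is edgeR's over all tested genes. In summed UMIs, fewer expressing cells and less RNA per cell cannot be told apart.

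Several genes of classical monocytes were much higher on MCD. Hp encodes haptoglobin, which binds free haemoglobin and is stored in myeloid granules. Hp had 98.0 and 113 CPM on NCD and 952 and 954 CPM on MCD. Both MCD libraries lay far above both NCD libraries, a rise of 3.17 ± 0.14 (adjusted p = 0.000242). With each cell thinned to 1000 UMIs, 11.3% and 10.6% of NCD members and 57.4% and 54.4% of MCD members had an Hp UMI. In the other cells of the same libraries the shares were 1.68%, 2.01%, 14.3% and 12.6%, so Hp was more often found on MCD there too.

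Chil3 had 463 and 577 CPM on NCD and 2247 and 2164 CPM on MCD, a rise of 2.08 ± 0.15 (adjusted p = 0.000365). Cd14, the coreceptor that passes lipopolysaccharide to TLR4, had 186 and 245 CPM on NCD and 831 and 1125 CPM on MCD, a rise of 2.17 ± 0.20 (adjusted p = 0.000588). Neither gene's levels overlapped between diets. Trem1, a receptor that amplifies Toll-like receptor signals, had 6.53 and 7.45 CPM on NCD and 70.1 and 98.4 CPM on MCD, a rise of 3.57 ± 0.32 (adjusted p = 0.00056). Its NCD levels rested on 5 and 9 UMIs.

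Of 28 genes of classical monocyte identity, 14 were higher, 3 lower and 11 not called, with a median change of 0.82 (0.53 without MCD replicate 2 and 0.35 with the trend of log ratios on transcript GC content removed). Cebpb, a transcription factor of myeloid cells, rose by 1.06 ± 0.13 (adjusted p = 0.00126). With the GC trend removed its adjusted p was 0.238. The 3 lower genes were Plac8, Ifitm3 and Ms4a4c. Plac8, a small cysteine-rich protein of myeloid cells, had 6188 and 5349.6 CPM on NCD and 2364 and 2315 CPM on MCD, with both MCD libraries low and a change of -1.30 ± 0.14 (adjusted p = 0.000918). Ifitm3, an interferon-induced barrier to virus entry, had 7066 and 5594 CPM on NCD and 2971 and 3737 CPM on MCD, with a change of -0.92 ± 0.18 (adjusted p = 0.00778) and an adjusted p of 0.0706 without MCD replicate 1. Ms4a4c, a membrane protein of the MS4A family, changed by -0.75 ± 0.18 (adjusted p = 0.0177), which was lost without NCD replicate 1 (adjusted p = 0.134), without NCD replicate 2 (adjusted p = 0.0667) and after removal of the GC trend (adjusted p = 0.163).

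Among genes that the sort and the lineage rest on, Ccr2, Itgam, Adgre1, Itgax and Ptprc were not called. Ccr2, the receptor for entry into tissue, had 838 and 800.4 CPM on NCD and 743 and 658 CPM on MCD, with a change of -0.23 ± 0.12 (adjusted p = 0.188). Without cells that carry endothelial genes its adjusted p was 0.00374. Itgam (CD11b) had 291 and 258 CPM on NCD and 285 and 271 CPM on MCD and a change of 0.02 ± 0.12 (adjusted p = 0.912). Adgre1 (F4/80) had 125 and 101 CPM on NCD and 116 and 113 CPM on MCD and a change of 0.03 ± 0.14 (adjusted p = 0.897). The levels of Itgam and Adgre1 overlapped between diets. Itgax, with 26.1 and 12.4 CPM on NCD and 37.0 and 23.4 CPM on MCD, also overlapped and was not called (adjusted p = 0.18). Ptprc (CD45) had 1190.5 and 1138 CPM on NCD and 934 and 906 CPM on MCD and was not called (adjusted p = 0.0543), but reached 0.00261 without cells that carry endothelial genes.

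Csf1r, the receptor of the macrophage growth factor CSF1, had 361 and 345 CPM on NCD and 566 and 542 CPM on MCD. Its rise of 0.65 ± 0.11 (adjusted p = 0.00493) did not pass once the GC trend was taken out (adjusted p = 0.726). Cx3cr1, the fractalkine receptor of patrolling cells, had 312 and 226 CPM on NCD and 168 and 183 CPM on MCD, with a change of -0.61 ± 0.16 (adjusted p = 0.025) that was lost without NCD replicate 1 (adjusted p = 0.107). Neither gene's levels overlapped between diets.

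Of 20 recruitment and adhesion genes 3 were higher and 6 lower, with a median of -0.06. Scaled by library totals, 7 were higher and 4 lower, with a median of 0.19, and 3 were lower without NCD replicate 1 and 3 without NCD replicate 2. Icam1, an adhesion ligand of integrins, had 77.1 and 78.6 CPM on NCD and 188 and 183 CPM on MCD, a rise of 1.25 ± 0.13 (adjusted p = 0.000757). Itgb7, an integrin chain, had 77.1 and 79.5 CPM on NCD and 205 and 233 CPM on MCD, a rise of 1.48 ± 0.14 (adjusted p = 0.000611). Both genes were higher in each MCD library than in either NCD library. Selplg, the selectin ligand PSGL-1, was called (adjusted p = 0.0476) but lost the call in most other settings, among them without NCD replicate 2 (adjusted p = 0.152), MCD replicate 1 (adjusted p = 0.0629) or MCD replicate 2 (adjusted p = 0.123). Pecam1, which endothelium expresses strongly, had 57.5 and 73.7 CPM on NCD and 8.18 and 16.1 CPM on MCD and changed by -2.44 ± 0.34 (adjusted p = 0.00204), and without NCD replicate 2 its adjusted p was 0.0648.

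Of 22 inflammatory cytokine and chemokine genes 6 were higher, 2 lower and 14 not called, with a median of 0.47. The median was 0.08 without MCD replicate 2 and 0.77 without NCD replicate 1, and 10 were higher with library totals. Il1b, the precursor of interleukin 1 beta, had 278 and 153 CPM on NCD and 1421 and 1509.7 CPM on MCD, a rise of 2.79 ± 0.25 (adjusted p = 0.000562) without overlap. In thinned cells 11.9% and 9.26% of NCD members and 46.0% and 45.4% of MCD members had an Il1b UMI. The other cells of the same libraries gave 19.6%, 13.002%, 41.3% and 39.9%, close to the members on MCD.

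Cxcl2, an attractant of neutrophils, had 332 and 324 CPM on NCD and 1069 and 1389.9 CPM on MCD, a rise of 1.91 ± 0.16 (adjusted p = 0.000502). Tgfb1, a cytokine of repair and fibrosis, had 159 and 169 CPM on NCD and 471 and 479 CPM on MCD, a rise of 1.53 ± 0.12 (adjusted p = 0.000396). Both were higher in each MCD library. Il18, another inflammasome product, went the other way with 39.2 and 30.6 CPM on NCD and 17.3 and 17.3 CPM on MCD and a change of -0.99 ± 0.19 (adjusted p = 0.00694). Vegfa, a growth factor of vessels, rose by 1.18 ± 0.20 (adjusted p = 0.00483), and its adjusted p was 0.0607 when Fn1 was left out of the selection.

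NF-kappaB drives inflammatory transcription, and of 20 genes of this pathway and the inflammasome 15 were higher and none lower, with a median of 1.02. Without NCD replicate 2 the count was 9. Ier3, an early response gene that protects from cell death, had 129 and 88.6 CPM on NCD and 546 and 612 CPM on MCD, a rise of 2.44 ± 0.18 (adjusted p = 0.000392). The subunit gene Nfkb2 had 11.8 and 9.11 CPM on NCD and 65.4 and 64.1 CPM on MCD, a rise of 2.67 ± 0.20 (adjusted p = 0.000393). Gsdmd, the pore protein of pyroptosis, had 24.8 and 17.4 CPM on NCD and 72.1 and 74.0 CPM on MCD, a rise of 1.84 ± 0.19 (adjusted p = 0.000804). For these 3 genes both MCD libraries lay above both NCD libraries.

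Of 19 Toll-like and Fc receptor genes 8 were higher and 3 lower, with a median of 0.55. Clec4d, a lectin receptor for microbial glycolipids, had 39.2 and 50.5 CPM on NCD and 119 and 127 CPM on MCD, a rise of 1.43 ± 0.16 (adjusted p = 0.00098). The 3 lower were Fcgr2b, Fcgr4 and Fcer1g. Fcgr2b, the inhibitory Fc receptor, had 453 and 545 CPM on NCD and 255 and 228 CPM on MCD and a change of -1.05 ± 0.13 (adjusted p = 0.00158), with an adjusted p of 0.0892 without cells that carry endothelial genes. Fcer1g, the shared signalling chain, changed by -0.59 ± 0.15 (adjusted p = 0.018) and was not called without MCD replicate 1 (adjusted p = 0.0992) or MCD replicate 2 (adjusted p = 0.112).

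Phagocyte oxidase and antimicrobial genes were higher in 9 of 13 and lower in none, with a median of 1.14. Slpi, an inhibitor of neutrophil elastase, had 95.4 and 79.5 CPM on NCD and 395 and 528 CPM on MCD, a rise of 2.41 ± 0.19 (adjusted p = 0.000405). Slc11a1, which pumps metal ions out of the phagosome, had 53.6 and 32.3 CPM on NCD and 166 and 167 CPM on MCD, a rise of 2.01 ± 0.20 (adjusted p = 0.000774). Ncf4, a cytosolic subunit of the oxidase, had 69.3 and 67.0 CPM on NCD and 226 and 252 CPM on MCD, a rise of 1.81 ± 0.14 (adjusted p = 0.000392). None of the 3 overlapped between diets.

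**Figure D3:**
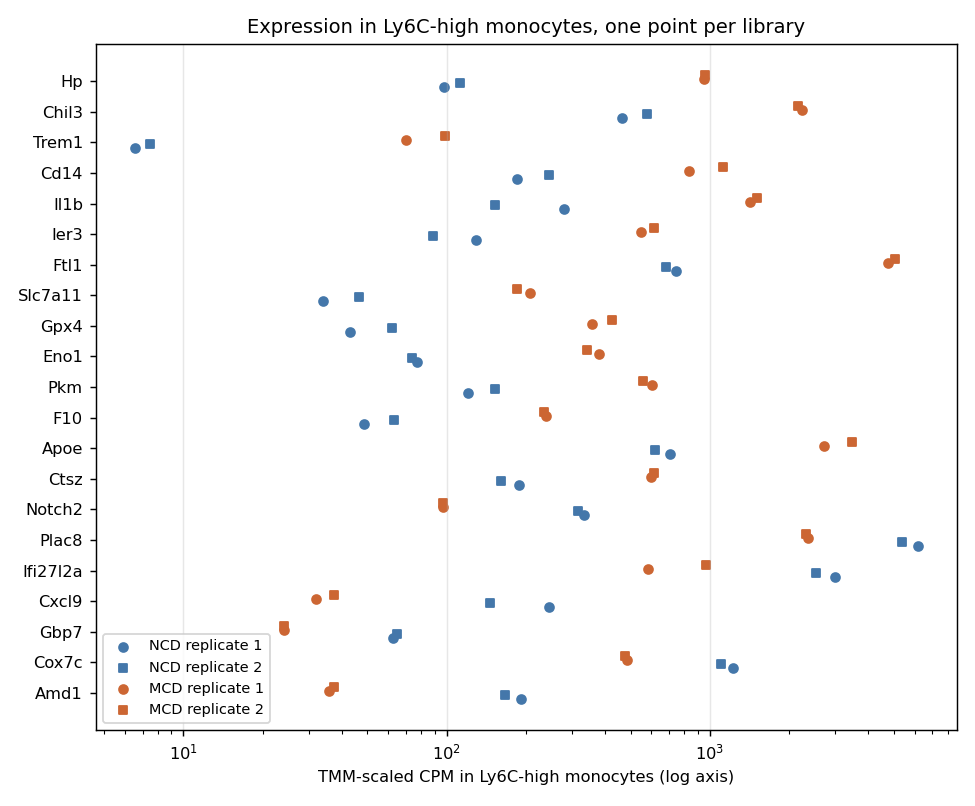
TMM-scaled CPM (log axis) of 21 genes in Ly6C-high monocytes, 1 point per library. From Hp to Ctsz both MCD libraries lie to the right of both NCD libraries, and from Notch2 to Amd1 both lie to the left, for example Hp at 98.0 and 113 against 952 and 954 CPM and Amd1 at 192 and 167 against 35.8 and 37.4 CPM.

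NRF2 is the transcription factor that answers oxidative stress. Of 20 genes of this response 14 were higher and none lower, with a median of 0.84; without cells that carry endothelial genes 11 were higher and 1 lower. Ftl1, the ferritin light chain that stores iron, had 744 and 679 CPM on NCD and 4728 and 5039 CPM on MCD, a rise of 2.78 ± 0.14 (adjusted p = 0.000242). Slc7a11, the cystine importer that feeds glutathione synthesis, had 34.0 and 46.4 CPM on NCD and 207 and 184 CPM on MCD, a rise of 2.25 ± 0.17 (adjusted p = 0.000396). Tkt, transketolase of the pentose phosphate pathway, had 106 and 112 CPM on NCD and 376 and 375 CPM on MCD, a rise of 1.78 ± 0.12 (adjusted p = 0.000361). All 3 separated the diets. Gpx4, which uses glutathione to reduce lipid peroxides and is not in this list, had 43.1 and 62.1 CPM on NCD and 358 and 423 CPM on MCD, a rise of 2.86 ± 0.19 (adjusted p = 0.000317).

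Promoter stretches of this list are shown because all 14 of its called members were higher. The core of the antioxidant response element, TGACNNNGC on either strand, was searched in RefSeq promoter windows (GRCm38.p6) from 250 bases before to 50 after the start site. Of the 16 list genes with a window 7 held a match (43.8%), against 17.3% of 8242 tested genes and 12.4% of all 32851 windows. Of the 11 list genes with a window that were called higher, 5 held one. The sequences run 5′ to 3′ on the gene's strand, with the match in capitals. Txnrd1, thioredoxin reductase, is on chr10:82859088-82859148, plus strand, with the match starting 92 bases before the start site. G6pdx, the first enzyme of the pentose phosphate pathway, is on chrX:74428903-74428963, minus strand, with the match 57 bases before. Nfe2l2, which encodes NRF2, is on chr2:75704869-75704913, minus strand, with the match 240 bases before. Gclm, a subunit of the enzyme that starts glutathione synthesis, is on chr3:122245397-122245457, plus strand, with the match 134 bases before.
Txnrd1: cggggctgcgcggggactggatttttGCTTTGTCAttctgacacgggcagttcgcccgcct
G6pdx: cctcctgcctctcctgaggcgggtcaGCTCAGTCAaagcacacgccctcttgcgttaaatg
Nfe2l2: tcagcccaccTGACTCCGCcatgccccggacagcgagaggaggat
Gclm: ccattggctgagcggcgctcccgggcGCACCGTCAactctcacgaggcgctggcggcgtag
None of the 4 stretches held TGACTCA or TGAGTCA, the AP-1 site that this motif can overlap. The match of Prdx1, a list gene not printed here, was GCTGAGTCA and did hold that site. Prdx1 was not called, with a change of 0.20. Txnrd1 rose by 1.11 ± 0.14 (adjusted p = 0.00161), G6pdx by 0.74 ± 0.17 (adjusted p = 0.0129) and Nfe2l2 by 0.90 ± 0.11 (adjusted p = 0.00141). Gclm also held a match but was not called, with a change of 0.44 ± 0.19 (adjusted p = 0.119), and the windows of Slc7a11 and Ftl1 held none. A match describes these letters and not binding.

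Of 14 iron and metallothionein genes 6 were higher, Hp, Ftl1 and Slc11a1 among them, and 1 lower, with a median of 0.95 (1.82 without NCD replicate 2). The lower gene was Slc40a1, the iron exporter ferroportin, with 18.3 and 29.0 CPM on NCD and 3.04 and 6.93 CPM on MCD and a change of -2.27 ± 0.46 (adjusted p = 0.00912). It missed the threshold without NCD replicate 2 (adjusted p = 0.172) or without cells that carry endothelial genes (adjusted p = 0.335).

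The integrated stress response slows translation and switches on ATF4 when amino acids run short. Of its 19 tested genes 10 were higher and none lower, with a median of 1.09. With the GC trend removed 8 were higher and 1 lower, with a median of 0.49. Gdf15, a stress hormone, had 2 UMIs in each NCD library and 1025 and 797 in the MCD libraries, or 2.61 and 1.66 CPM on NCD and 69.3 and 45.2 CPM on MCD. Its rise was 4.81 ± 0.50 (adjusted p = 0.000786). Without cells that carry endothelial genes it had no NCD UMI and 1751 MCD UMIs, at least 29.8-fold higher against a floor of 3 counts over both NCD libraries.

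Gadd45b, a stress-induced regulator of growth and survival, had 45.7 and 25.7 CPM on NCD and 222 and 339 CPM on MCD, a rise of 3.04 ± 0.31 (adjusted p = 0.000757). Atf3, a factor induced by many stresses, had 626 and 509.9 CPM on NCD and 1544 and 1563 CPM on MCD, a rise of 1.46 ± 0.14 (adjusted p = 0.000659). Both were higher in each MCD library. Atf5, a factor of the same family, had no NCD UMI and 111 and 156 MCD UMIs, at least 6.37-fold higher against the same floor. Asns, asparagine synthetase, had no NCD UMI and 33 and 37 MCD UMIs and was not called (adjusted p = 0.0522). With Atf5 and Asns at their bounds the list's median was 1.06.

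Glycolysis genes were higher in 12 of 17 and lower in 1, with a median of 1.25 (0.78 with the GC trend removed). Eno1 (enolase) had 77.1 and 73.7 CPM on NCD and 379 and 343 CPM on MCD, a rise of 2.26 ± 0.13 (adjusted p = 0.000242). Pkm, a pyruvate kinase, had 120.2 and 152 CPM on NCD and 604 and 555 CPM on MCD, a rise of 2.07 ± 0.15 (adjusted p = 0.000365). Both enzymes were higher in each MCD library, and so was Tpi1, triosephosphate isomerase, with a rise of 2.12 ± 0.22 (adjusted p = 0.000774). The exception was Hk2, a hexokinase, with 197 and 132 CPM on NCD and 90.4 and 87.9 CPM on MCD and a change of -0.86 ± 0.18 (adjusted p = 0.0106). Khk, which phosphorylates fructose and is not in the list, had 3.92 and 11.6 CPM on NCD and 62.8 and 62.3 CPM on MCD, a rise of 2.87 ± 0.29 (adjusted p = 0.000774). Hypoxia genes were higher in 3 of 16 and lower in 1, with a median of 0.02, and 1 was higher without NCD replicate 2.

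Nuclear genes of the respiratory chain were lower in 13 of 23 and higher in 4, with a median of -0.43. Cox7c, a small subunit of complex IV, had 1219 and 1101 CPM on NCD and 486 and 475 CPM on MCD, with both MCD libraries low and a change of -1.27 ± 0.12 (adjusted p = 0.000628). Uqcrc1, Sdhb and Atp5b were among the higher. Uqcrc1, a core subunit of complex III, had 30.1 and 38.9 CPM on NCD and 102 and 93.5 CPM on MCD, a rise of 1.47 ± 0.17 (adjusted p = 0.00108). Members of 1 machine thus went opposite ways. With the GC trend removed 15 were lower and 4 higher, with a median of -0.72, and with library totals the median was -0.18. By the longest transcript of each gene, the 4 higher genes spanned 1232 to 2473 bases and the 13 lower ones 563 to 3123 bases. The lower genes from Atp5k at 563 to Cox5b at 865 bases were shorter than every higher one. Cox6c and Cycs, also lower, were longer than every higher one at 3038 and 3123 bases. Over genes at 50 CPM or more in either diet, log ratio and transcript length had a Spearman correlation of -0.05. The part of length in the split was not tested.

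Ribosomal protein genes also split, with 8 of 29 higher, 14 lower and a median of -0.38. Rps28 had 8208 and 6745 CPM on NCD and 1949.5 and 1830.4 CPM on MCD, a change of -1.98 ± 0.16 (adjusted p = 0.000405). Rpl4 had 175 and 146 CPM on NCD and 865 and 851 CPM on MCD, a rise of 2.43 ± 0.14 (adjusted p = 0.000242), and Rplp0 had 715 and 698 CPM on NCD and 3095 and 3318 CPM on MCD, a rise of 2.18 ± 0.13 (adjusted p = 0.000242). The levels of these 3 genes did not overlap between diets. Log ratios moved with transcript GC content: the trend stood at -0.38 for transcripts of 33.9% GC, 0.04 for 45.4% and 0.70 for 57.7%. With it removed 5 ribosomal genes were higher and 17 lower. There were 5 higher when either MCD library was left out, and without NCD replicate 1 the median was -0.15. Many ribosomal genes have near-identical pseudogenes, so their counts are uncertain. The longest transcripts of the 8 higher genes spanned 1020 to 2657 bases and those of the 14 lower genes 457 to 4059 bases. The lower genes from Rpl38 at 457 to Rplp2 at 964 bases were shorter than every higher one, and Rps24 at 4059 bases was longer. The part of length was not tested here either.

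Of 20 genes of the interferon gamma response 12 were lower and 3 higher, with a median of -0.81. Cxcl9, an attractant of T cells, had 244 and 146 CPM on NCD and 31.9 and 37.5 CPM on MCD, with a change of -2.47 ± 0.23 (adjusted p = 0.000645). Gbp7, a guanylate-binding protein of cell defence, had 62.7 and 64.6 CPM on NCD and 24.1 and 24.1 CPM on MCD, with a change of -1.40 ± 0.14 (adjusted p = 0.000757). Both were lower in each MCD library than in either NCD library. The 3 higher were Psmb8, an immunoproteasome subunit with a rise of 1.14 ± 0.13 (adjusted p = 0.000957), Tap1, the peptide transporter of class I presentation with a rise of 1.02 ± 0.17 (adjusted p = 0.00384), and Irf1, a factor downstream of interferon gamma with a rise of 0.54 ± 0.16 (adjusted p = 0.0377). With the GC trend removed the adjusted p was 0.0613 for Tap1 and 0.332 for Irf1.

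Of 27 type I interferon genes 13 were lower and 2 higher, with a median of -0.75. This count depended on single libraries: it was 3 lower without NCD replicate 1, 3 lower without NCD replicate 2, and 21 lower without MCD replicate 2. Ifi27l2a, an interferon-induced mitochondrial protein, had 2981 and 2520.4 CPM on NCD and 579.6 and 963 CPM on MCD, with a change of -1.83 ± 0.24 (adjusted p = 0.00165). Ifit1, which binds viral RNA, had 90.2 and 60.4 CPM on NCD and 8.92 and 21.9 CPM on MCD and a change of -2.24 ± 0.43 (adjusted p = 0.00718), with an adjusted p of 0.0937 without NCD replicate 1 and 0.07 without NCD replicate 2. Cxcl10, an attractant of T cells induced by both interferons, had 593 and 499.9 CPM on NCD and 258 and 331 CPM on MCD, with a change of -0.89 ± 0.16 (adjusted p = 0.00539). The levels of these 3 genes did not overlap between diets. The 2 higher were Irf7 (adjusted p = 0.0227) and Oas1a (adjusted p = 0.0266), and both missed the threshold without NCD replicate 1 (adjusted p = 0.0549 and 0.101) or NCD replicate 2 (adjusted p = 0.248 and 0.274).

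Genes of macrophage maturation were higher in 15 of 28 and lower in 5, with a median of 0.86; without NCD replicate 2 the counts were 9 and 3, and with the GC trend removed the median was 0.52. Apoe, a lipid carrier made by macrophages, had 706 and 618 CPM on NCD and 2718 and 3453 CPM on MCD, a rise of 2.22 ± 0.17 (adjusted p = 0.000392). In thinned cells 35.1% and 33.0% of NCD members and 76.1% and 84.7% of MCD members had an Apoe UMI, against 30.7%, 35.5%, 46.3% and 51.2% of the other cells. The share in members was above that in the other cells in both MCD libraries and in NCD replicate 1, and below it in NCD replicate 2. Plin2, which coats lipid droplets, had 108 and 100.2 CPM on NCD and 296 and 301 CPM on MCD, a rise of 1.52 ± 0.12 (adjusted p = 0.000453). Trem2, the lipid receptor that marks lipid-associated macrophages, had 17.0 and 23.2 CPM on NCD and 82.3 and 74.2 CPM on MCD, a rise of 1.92 ± 0.19 (adjusted p = 0.00073).

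The 5 lower were Maf, Mertk, Mrc1, Abcg1 and Cd36. Maf, a transcription factor of resident macrophages, had 464 and 704 CPM on NCD and 71.1 and 124 CPM on MCD, with a change of -2.59 ± 0.29 (adjusted p = 0.00105). Mertk, a receptor for dying cells, had 35.3 and 52.1 CPM on NCD and 3.45 and 6.93 CPM on MCD, with a change of -3.09 ± 0.37 (adjusted p = 0.00128). Both were lower in each MCD library. Mrc1 and Cd36, which liver endothelium also expresses, were not called without cells that carry endothelial genes (adjusted p = 0.205 and 0.757) or without NCD replicate 2 (adjusted p = 0.103 and 0.0719). The 9 markers of lipid-associated macrophages together took 0.0896% and 0.0876% of member UMIs on NCD and 0.294% and 0.281% on MCD. In the other cells they took 0.0767% and 0.0712% on NCD and 0.279% and 0.237% on MCD, so this level moved with diet outside the members too.

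Lysosome genes were higher in 16 of 30 and lower in none, with a median of 0.61. Ctsz, a cathepsin, had 188 and 161 CPM on NCD and 599 and 613 CPM on MCD, a rise of 1.80 ± 0.13 (adjusted p = 0.000365). Ctsd, the main aspartic protease of lysosomes, had 122 and 146 CPM on NCD and 324 and 373 CPM on MCD, a rise of 1.37 ± 0.14 (adjusted p = 0.000845). Neither overlapped between diets. Lipid handling genes were higher in 10 of 27 and lower in 5, with counts of 6 and 4 without NCD replicate 1 and 5 and 1 without NCD replicate 2, and with 3 lower without MCD replicate 1. Pnpla2, the lipase that opens lipid droplets, had 18.3 and 17.4 CPM on NCD and 62.8 and 55.6 CPM on MCD, a rise of 1.74 ± 0.19 (adjusted p = 0.000918). Cpt1a, which brings fatty acids into mitochondria, changed by -0.45 ± 0.15 (adjusted p = 0.048), with an adjusted p of 0.446 without NCD replicate 2.

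Matrix and coagulation genes were higher in 10 of 23 and lower in 4, with a median of 0.68; only 1 was lower without NCD replicate 1, NCD replicate 2 or MCD replicate 1. F10, coagulation factor X, had 48.4 and 62.9 CPM on NCD and 239 and 235 CPM on MCD, a rise of 2.07 ± 0.15 (adjusted p = 0.000392). Plaur, the urokinase receptor, had 152 and 138 CPM on NCD and 413 and 468 CPM on MCD, a rise of 1.61 ± 0.13 (adjusted p = 0.000484). Tgfbi, a matrix protein induced by TGF-beta, had 267 and 303 CPM on NCD and 979 and 725 CPM on MCD, a rise of 1.58 ± 0.17 (adjusted p = 0.000927). All 3 were higher in each MCD library.

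Of 23 tested genes of methionine, choline and polyamine metabolism, which handle the nutrients the diet lacks, 6 were higher and 3 lower, with a median of 0.37 and counts of 3 and 1 without NCD replicate 2. Amd1 turns S-adenosylmethionine into the donor that polyamine synthesis uses. It had 192 and 167 CPM on NCD and 35.8 and 37.4 CPM on MCD, a change of -2.29 ± 0.13 (adjusted p = 0.000242) with both MCD libraries low. Sms, spermine synthase, changed by -1.10 ± 0.22 (adjusted p = 0.00873) but missed the threshold without NCD replicate 1 (adjusted p = 0.087) or 2 (adjusted p = 0.0568). Odc1, ornithine decarboxylase, had 39.2 and 33.1 CPM on NCD and 82.9 and 119 CPM on MCD, a rise of 1.504 ± 0.24 (adjusted p = 0.00355) that was lost without NCD replicate 2 (adjusted p = 0.0757). Slc44a1, a choline transporter, had 19.6 and 27.3 CPM on NCD and 10.7 and 10.4 CPM on MCD and was called lower (adjusted p = 0.00771), but not without cells that carry endothelial genes (adjusted p = 0.735).

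Of 20 genes of conversion to patrolling monocytes 10 were lower and 5 higher, with a median of -0.46. Notch2, whose signal starts the conversion, had 333 and 316 CPM on NCD and 97.3 and 97.0 CPM on MCD, a change of -1.74 ± 0.11 (adjusted p = 0.000314) with both MCD libraries low. Nr4a1, the factor that patrolling monocytes need, had 874 and 800.4 CPM on NCD and 1358 and 1439 CPM on MCD and went the other way. Its rise of 0.74 ± 0.12 (adjusted p = 0.00384) missed the threshold after the GC trend was taken out (adjusted p = 0.0565). Only 4 genes of the list were lower without NCD replicate 2 and 6 with library totals, and without cells that carry endothelial genes 7 were lower, with a median of -0.12.

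Of 11 tested genes of neutrophil-like monocytes 6 were higher and 2 lower, with a median of 1.11. There were 3 higher when either NCD library was left out, and without MCD replicate 1 the median was 0.53. The 2 lower, S100a8 and S100a9, which form the neutrophil protein calprotectin, rested on few cells: a single cell held 87.9% of a library's S100a8 UMIs and 95.6% of its S100a9 UMIs. Genes of dendritic-like monocytes were higher in 3 of 15 and lower in 1, but none was higher without NCD replicate 2 or with the DESeq2 test, which called 2 lower. Of 25 immediate early and heat shock genes, which dissociation of tissue can switch on, 15 were higher and 3 lower, with a median of 0.81, and 1 was lower without MCD replicate 1 or MCD replicate 2. Hspa1a, an inducible chaperone, had 565 and 652 CPM on NCD and 1651 and 2945 CPM on MCD, a rise of 1.91 ± 0.26 (adjusted p = 0.00204), whereas Fos had 5077 and 4208 CPM on NCD and 3493 and 3100.3 CPM on MCD and changed by -0.49 ± 0.15 (adjusted p = 0.0411), which was lost without NCD replicate 1 (adjusted p = 0.0773), MCD replicate 1 (adjusted p = 0.142) or MCD replicate 2 (adjusted p = 0.298). Cell cycle genes were lower in 11 of 18 and higher in none, but 7 were lower without MCD replicate 2, none without NCD replicate 2 and 2 without cells over 2 times the median UMIs.

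**Figure D4:**
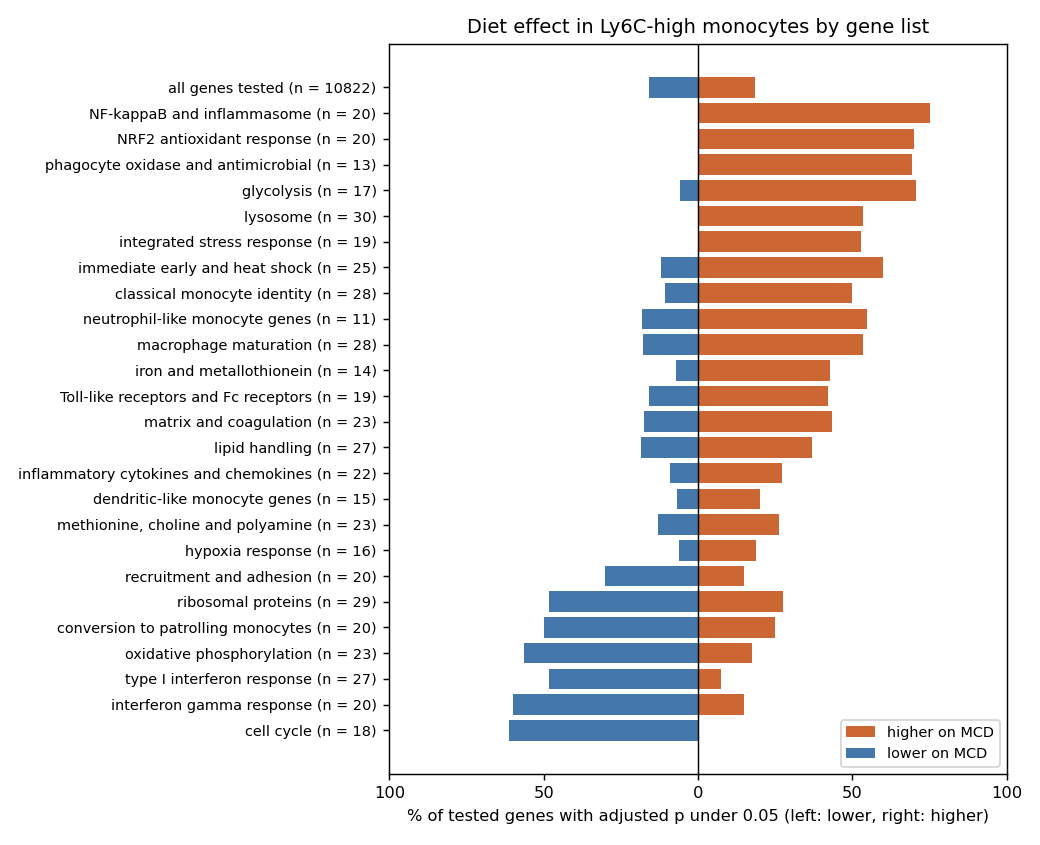
Percent of the tested genes of each list with an adjusted p under 0.05, higher on MCD to the right and lower to the left, beside all 10822 genes tested (18.4% and 16%). Both shares were larger among genes at 50 CPM or more in either diet, with 20.3 to 41.9% higher and 18.7 to 33.0% lower in 4 groups by transcript length. NF-kappaB genes (15 of 20 higher) stand at the top of the lists and cell cycle genes (11 of 18 lower) at the bottom.

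Among called genes at 50 CPM or more whose libraries did not overlap and of whose UMIs no cell held over 20%, the 12 largest rises were Gdf15, Ccl24, Lars2, Trem1, Erdr1, Hp, Gadd45b, Khk, Gpx4, Il1b, Ftl1 and Pstpip1. Ccl24, an attractant of eosinophils, had 3.92 and 7.45 CPM on NCD and 99.5 and 52.7 CPM on MCD, a rise of 3.65 ± 0.52 (adjusted p = 0.00241) with an adjusted p of 0.0621 without NCD replicate 2. Pstpip1, a cytoskeletal adaptor of leukocytes, had 17.0 and 13.2 CPM on NCD and 104 and 95.1 CPM on MCD, a rise of 2.75 ± 0.19 (adjusted p = 0.000365). Both were higher in each MCD library. Lars2, the mitochondrial leucyl-tRNA synthetase, had 5.23 and 7.45 CPM on NCD and 79.7 and 79.5 CPM on MCD, a rise of 3.60 ± 0.22 (adjusted p = 0.000242). Erdr1 has near-identical copies, so its count is uncertain, and it missed the threshold without NCD replicate 1 (adjusted p = 0.154) or 2 (adjusted p = 0.17).

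Under the same limits the 10 largest falls were Gng11, Plpp3, Meis2, Dlc1, Fabp4, Cd55, Sdpr, Nr2f2, Cmtm8 and Myct1, several of which are known from vascular endothelium. Plpp3, a lipid phosphatase of vessels, had 214 and 428 CPM on NCD and 11.4 and 39.7 CPM on MCD, with a change of -3.66 ± 0.56 (adjusted p = 0.00297). Fabp4, a fatty acid binding protein of capillaries, had 210.4 and 395 CPM on NCD and 9.59 and 41.6 CPM on MCD, with a change of -3.57 ± 0.61 (adjusted p = 0.00471). Both NCD libraries were the higher ones for each. Without NCD replicate 2 the adjusted p was 0.0661 for Plpp3, 0.0907 for Fabp4, 0.0777 for Gng11, 0.0838 for Dlc1, 0.0821 for Sdpr, 0.0967 for Nr2f2, 0.0791 for Cmtm8 and 0.112 for Myct1.

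Members with at least 0.03% of UMIs from Cdh5, Kdr, Stab2, Clec4g, Ptprb and Egfl7, 6 genes of endothelium, numbered 59 and 114 on NCD (16.6% and 25.1%) and 23 and 67 on MCD (2.35% and 5.31%). The cutoff is a share of UMIs, so a shallow cell passes it with fewer endothelial UMIs than a deep one. NCD members were the shallower, so these shares of cells cannot be compared directly between diets. Scaled by total UMIs, the 6 genes had 664 and 1325 CPM on NCD and 95.6 and 274 CPM on MCD in members. In the other retained cells they had 1319 and 2281 CPM on NCD and 358 and 746 CPM on MCD. The members over the cutoff held 88.7% and 95.9% of the UMIs of the 10 largest falls on NCD and 78.2% and 83.3% on MCD. They were deeper than the other members, with medians of 2563 against 2018 and 2903 against 2126 UMIs on NCD and 16053 against 13714.5 and 16153 against 13010.0 UMIs on MCD. Without them Plpp3 had 18.4 and 12.9 CPM on NCD and 0.775 and 3.02 CPM on MCD, well under its level above. Nr2f2 (adjusted p = 0.142) and Cmtm8 (adjusted p = 0.803) were then not called and Myct1 was not tested, while the other 7 were still called. Mean NCD levels of those 7 then ran from 5.83 CPM for Meis2 to 49.5 CPM for Fabp4, all under the 50 CPM limit. Their calls thus rested on low counts.

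Of the falls described earlier, Fcgr2b, Slc40a1, Mrc1, Cd36 and Slc44a1 were not called without those cells, as given above. Notch2, Plac8, Ifi27l2a, Cxcl9 and Amd1 were still called lower, with adjusted p values of 1.66e-07, 1.79e-07, 4.65e-06, 0.000302 and 9.75e-08. B930036N10Rik and Lepr were then among the largest falls under the same limits, chosen after their values were seen. Lepr, the leptin receptor, had 217 and 175 CPM on NCD and 20.2 and 26.9 CPM on MCD.

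**Figure D5:**
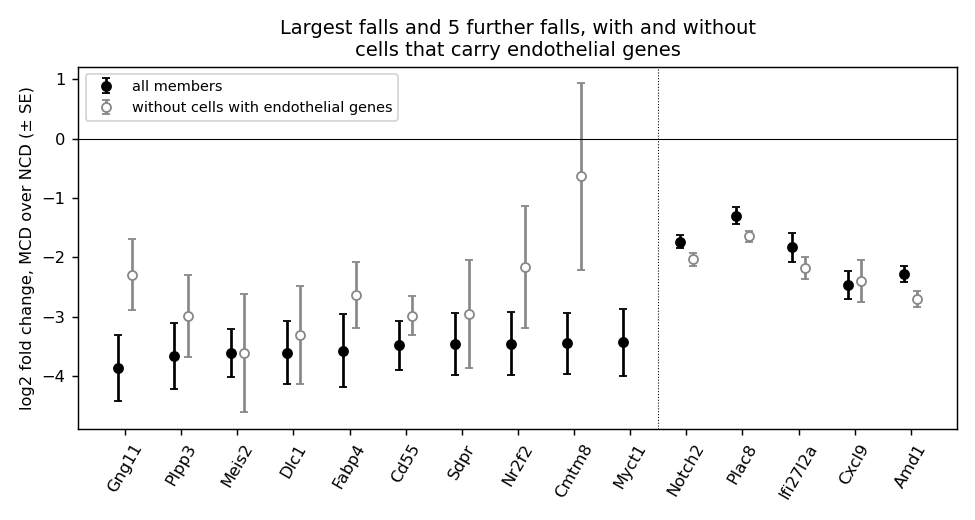
Log2 change MCD over NCD ± SE from edgeR for the 10 largest falls under the limits named above (left of the dotted line) and 5 falls described earlier (right), with all members (filled) and without members that carry endothelial genes (open). Cmtm8 moves from -3.45 to -0.64, Myct1 has no open point because it was not tested, and the 5 falls on the right stay below 0.

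Members also differed among themselves. In cells thinned to 1000 UMIs the ratio of variance to mean over cells was 1.09 to 1.13 for the median gene. Cxcl10 had ratios of 6.83 and 13.4 on NCD and 9.69 and 8.61 on MCD, and was found in 12.7%, 11.1%, 8.03% and 11.6% of members of NCD replicates 1 and 2 and MCD replicates 1 and 2, against 9.93%, 6.501%, 8.33% and 8.49% of the other cells. Ccl4, an attractant of T cells and monocytes, had ratios of 4.67 to 7.19. Ccl2 had ratios of 2.36 to 3.66 and was found in 15.3%, 15.8%, 16.2% and 21.1% of members, against 4.88%, 3.85%, 6.69% and 9.12% of the other cells. Lyz2 was found in 98.4% or more of the members of each library. Its ratios were still 2.18 and 2.24 on NCD and 4.48 and 4.54 on MCD, above those of Ccl2 on MCD. High ratios were not limited to chemokines, since Malat1 had ratios of 3.25 to 9.77.

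The diet effect was also set against that of Ly6C-low cells, chosen by the mirrored rule (211 and 268 cells on NCD, 287 and 321 on MCD). Of 9267 genes, 44 had a more positive (0.475%) and 277 a more negative (2.99%) diet effect in Ly6C-high cells, 3.46% in all, in a fit with library as a block. Aif1, a calcium-binding protein of macrophages, had 116 and 56.5 CPM on NCD and 149 and 146 CPM on MCD in Ly6C-high cells. In Ly6C-low cells it had 36.3 and 38.4 CPM on NCD and 228 and 219 CPM on MCD. The difference of the 2 diet effects was -1.69 ± 0.25 (edgeR adjusted p = 0.000115). Without cells over 2 times the median UMIs only 4 and 6 genes were called, and without MCD replicate 1 it was 22 and 69. Cells with the 6 endothelial genes were 22.7% and 41.0% of Ly6C-low cells on NCD and 7.32% and 17.1% on MCD. Here too the cutoff was easier to pass at the lower depth of NCD cells.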

How the data were processed

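Sorted liver leukocytes were profiled as single cells in 4 libraries, 2 per diet. The deposited matrices hold raw UMI counts per gene and barcode made by the authors with Cell Ranger on mm10, per the submitters' processing notes, at software version 3.0.2, per the file headers. One table lists 27998 genes and the others 28692, and the 27998 shared genes were used. Members summed to 882818, 1250622, 13345419 and 16475922 UMIs, so NCD levels are the less precise ones. No doublet caller was applied. Leaving out cells over 2 times the median UMIs was an alternative.

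Sums per library were compared with edgeR 4.0.16 (limma 3.58.1, R 4.3.3): quasi-likelihood F test, TMM factors, low count filter, adjusted p (Benjamini-Hochberg) over all tested genes. Cells were handled in Python 3.11.15. Alternatives used DESeq2 1.42.0, other scalings, filters and cell selections, each library left out, and a fit with the GC trend removed; leaving out cells with endothelial genes was added after seeing the data. On simulated counts for the diet comparison, 66% of genes changed by a log2 of 1 and 98% of those changed by 2 were recovered, and 4.65% of calls were false. For the class by diet term 13% and 69.7% were recovered. The diet simulation changed 100 well-counted genes of each size, at 1 fixed dispersion and without a trend of GC content or RNA quality. The real calls were far more numerous, so these rates need not hold for them.

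The members and gene lists were chosen with earlier results of these data known. Named genes were the 12 largest rises and 10 largest falls among called genes at 50 CPM or more with no overlap of libraries and no cell over 20% of the UMIs, the sort genes, the 3 largest changes per list and members called against a list's direction, the 5 most positive and 5 most negative class by diet terms, and the 10 highest ratios and variances. Asns, Atf5, B930036N10Rik, G6pdx, Gclm, Lepr, Nfe2l2, Prdx1 and Txnrd1 were named after their values were seen. Some genes that the rule selects are not reported here.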

Additional observations from a re-analysis of the deposited data

Results flagged for a closer look

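The diet effect of 10 genes differed between Ly6C-high and Ly6C-low cells by the class by diet term of edgeR, given here as log2 with the adjusted p. The term was positive for Wfdc21 (3.66, adjusted p = 0.0339), Cd63 (1.80, adjusted p = 0.0339), Pparg (1.77, adjusted p = 0.0141), S1pr5 (1.67, adjusted p = 0.0418) and Clec2i (1.55, adjusted p = 0.000437). It was negative for S100a9 (-3.03, adjusted p = 0.00033), Cxcl9 (-1.93, adjusted p = 0.00691), Cd177 (-1.73, adjusted p = 0.0122), Aif1 (-1.69, adjusted p = 0.000115) and Cxcl10 (-1.63, adjusted p = 0.0013).

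Clec2i, a ligand of natural killer receptors, had 32.8 and 38.5 CPM on NCD and 35.8 and 37.4 CPM on MCD in Ly6C-high cells, and 84.7 and 80.5 CPM on NCD and 26.03 and 30.4 CPM on MCD in Ly6C-low cells. Cd177 had 75.6 and 100.4 CPM on NCD and 183 and 224 CPM on MCD in Ly6C-high cells, and 6.92 and 8.41 CPM on NCD and 64.0 and 54.4 CPM on MCD in Ly6C-low cells. Wfdc21 had 228, 67.3, 68.4 and 0.614 CPM in the Ly6C-low cells of NCD replicates 1 and 2 and MCD replicates 1 and 2, so its diets overlapped. In the same order S100a9 had 8170, 4669, 2189 and 192 CPM in Ly6C-low cells and 58.5, 225, 4.96 and 1.45 CPM in Ly6C-high cells. The S100a9 UMIs of Ly6C-high cells rested on few cells, as given above. How far neutrophil RNA among the Ly6C-low cells entered these terms was not tested.

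With each library left out in turn, Clec2i and Aif1 kept the call. Without NCD replicate 1 the adjusted p was 0.248 for Wfdc21, which could not be tested in every setting. Without NCD replicate 1, NCD replicate 2 and MCD replicate 2 in turn, the adjusted p values were 0.251, 0.0699, 0.0751 for Cd63 and 0.116, 0.104, 0.163 for S1pr5. Pparg missed the threshold without NCD replicate 1, NCD replicate 2 and MCD replicate 1 (adjusted p = 0.051, 0.118, 0.0515). Without MCD replicate 1 the adjusted p was 0.0564 for S100a9 and 0.265 for Cxcl9. Cd177 missed it without NCD replicate 2 and MCD replicate 1 (adjusted p = 0.181, 0.0677), and Cxcl10 without MCD replicate 2 (adjusted p = 0.0756). Without cells over 2 times the median UMIs none of the 9 genes that could be tested (all but Wfdc21) passed, and that setting called 4 genes more positive and 6 more negative in all.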

How the results depend on the processing

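The genes called higher on MCD in members numbered 1231 with DESeq2, 198 at the 5% mitochondrial limit and 1286 with library sums thinned to the smallest, and 933 to 1662 with 1 library left out. Those called lower numbered 47 at the 5% limit and 631 to 1535 with 1 library left out. For the class by diet term the more positive genes (44) numbered 131 with library totals, 20 with DESeq2, 105 with no low count filter, 26 with markers at 0.2%, 4 without cells over 2 times the median UMIs, and 22 to 78 with 1 library left out. The more negative genes (277) numbered 161 with library totals, 57 at the 5% limit, 60 with markers at 0.2%, 6 without cells over 2 times the median UMIs, 73 without cells with endothelial genes, and 69 to 363 with 1 library left out. Of 122 named genes called, 42 kept the call in every alternative run and 69 in every one but the 5% limit. The cause of these changes was not tested, but the 5% limit left 17 and 25 members on NCD.

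Some log2 changes turned sign. With the GC trend removed Selplg was at -0.0018 and Rpl8 at -0.13. At the 5% limit S100a8 was at 1.98, H2-DMb1 at -0.0198, Cd36 at 0.32, Il18 at 1.06, Lgals1 at 0.16, Pdgfb at 8.67, Plau at 6.96, Higd1a at 0.051, Slc40a1 at 8.24, Oas1a at -0.072, Cpt1a at 0.17, Slc44a1 at 9.36 and Hmgb2 at 0.36. The class by diet term turned for Wfdc21 (-1.03, selection on thinned cells), Cd63 (-0.24, selection without Fn1), S100a9 (12.1, 5% limit), Cxcl9 (1.14 with markers at 0.2% and 1.21 without cells over 2 times the median UMIs), Cd177 (0.94, 5% limit) and Cxcl10 (0.74, 5% limit). With only 17 and 25 NCD members left at the 5% limit, the large values there cannot be read as sizes of change. Under that limit the cell cycle list had a median of 7.28 with no gene called. The cause of the turned signs was not tested.

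The replicate numbers are shared by the diets, but no label ties them to a batch or day. With replicate number as a block, 2226 genes were higher and 1998 lower, and replicate 1 minus replicate 2 correlated at r = 0.186 between diets across 2619 genes.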
